A study of Homo sapiens with 5 samples.

Results

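The genes described here are PTPRM and its relatives among the protein tyrosine phosphatases, enzymes that remove phosphate from tyrosine. PTPRM, PTPRK, PTPRT and PTPRU form the R2B family of receptor phosphatases, and PTPRC, PTPRE and PTPN6 are phosphatases of leukocytes. The members are a list of 7 symbols, each taken from the probe set whose annotation gives exactly 1 symbol and whose mean over all arrays was highest. Of the 7, 6 had such a probe set, out of 18417 genes in all, and each of the 6 had only 1. PTPRT was not analysed here. The list was built around PTPRM, which was chosen by its expression difference between the groups in these same arrays, the lowest of any gene. The differences of the members are therefore given as descriptions without a test.

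The samples were 5 clones of the human line Nalm6, which was established from acute lymphoblastic leukaemia of B-cell precursors, and each clone was measured on 1 array. In 3 clones a short hairpin RNA (shRNA) against MondoA was expressed, and in 2 clones a nonsense shRNA was expressed as control. All 5 clones were kept at 200 mg/dl glucose and 20% serum. MondoA is the product of MLXIP, a transcription factor that responds to glucose metabolites, and the series asks by its title how it affects metabolism, differentiation and survival of this leukaemia. A trait of a single clone and an effect of its shRNA cannot be told apart. Nothing in the labels says whether the clones of a group carry 1 hairpin or several.

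R2B phosphatases are single-pass membrane proteins whose extracellular part binds the same protein on a neighbouring cell, and whose intracellular part carries the phosphatase domain. They are known from cell contacts, where they sit with cadherins and catenins and dephosphorylate them. PTPRC, known as CD45, removes the inhibitory phosphate from Src-family kinases in lymphocytes. PTPN6, known as SHP-1, is a cytoplasmic phosphatase that docks on inhibitory receptors of B cells such as CD22 and CD72 and dampens receptor signalling. PTPRE has a receptor form and a cytoplasmic form and also acts on Src-family kinases.

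The 250 bases before the annotated starts are shown for PTPRM and PTPRK, the R2B genes that read lower in every clone labelled MondoA shRNA, and for PTPRC as the leukocyte gene with the most contrasting base composition. They come from RefSeq on GRCh38.p14 and run 5′ to 3′ on the strand of the gene. Capitals mark GC boxes (GGGCGG on either strand, counted also where copies overlap).
PTPRM, first start, chr18:7567066-7567315, plus strand: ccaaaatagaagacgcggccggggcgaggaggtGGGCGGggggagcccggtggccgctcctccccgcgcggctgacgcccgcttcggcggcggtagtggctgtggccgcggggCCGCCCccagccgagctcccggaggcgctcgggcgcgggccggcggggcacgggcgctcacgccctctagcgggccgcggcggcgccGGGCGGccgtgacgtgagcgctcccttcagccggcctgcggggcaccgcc
PTPRM, second start, chr18:7946625-7946874, plus strand: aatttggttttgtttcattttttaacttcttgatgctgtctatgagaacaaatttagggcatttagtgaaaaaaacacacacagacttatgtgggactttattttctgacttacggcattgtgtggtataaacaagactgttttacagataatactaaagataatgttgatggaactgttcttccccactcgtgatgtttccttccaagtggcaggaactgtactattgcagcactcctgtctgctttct
PTPRK, chr6:128520600-128520849, minus strand: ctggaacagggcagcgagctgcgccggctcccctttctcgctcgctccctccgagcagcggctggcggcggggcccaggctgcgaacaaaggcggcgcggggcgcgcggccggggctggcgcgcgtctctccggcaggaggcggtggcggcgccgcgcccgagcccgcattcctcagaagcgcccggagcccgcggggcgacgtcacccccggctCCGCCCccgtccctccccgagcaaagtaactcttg
PTPRC, chr1:198638790-198639039, plus strand: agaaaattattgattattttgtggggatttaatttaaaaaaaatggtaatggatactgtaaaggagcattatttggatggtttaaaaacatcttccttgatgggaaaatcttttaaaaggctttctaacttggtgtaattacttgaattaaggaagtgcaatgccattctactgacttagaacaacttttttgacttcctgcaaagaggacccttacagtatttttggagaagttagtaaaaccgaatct

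All 7 symbols matched the promoter table. The window of the first PTPRM start held 81.6% G and C, that of PTPRK 77.2% and that of PTPRU 77.6%, against a median of 58.0% over 35116 windows. The second PTPRM start, inside the gene, held 36.4% and the PTPRC window 31.2%. PTPRT, the R2B gene without values here, had 82.8%. GC boxes numbered 3 in the first PTPRM window, 6 in that of PTPRT, 2 in the first windows of PTPRE and PTPN6 and 1 in those of PTPRK and PTPRU, and 42.6% of all windows held at least 1. The E-box CACGTG, the core sequence bound by the MYC, MAX and MondoA families and the same on both strands, was in none of the windows of the 7 genes, and 6.34% of all windows held it. This says only that these letters are not in these windows. Which of the PTPRM starts was used in these clones was not measured.

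Values are RMA expression (robust multi-array average) on the log2 scale, 1 per probe set, and errors are SD over n = 3 clones labelled MondoA shRNA and n = 2 control clones. The brightness of a probe set depends on its probes, so the level of a gene is compared between clones and genes are not ranked by level. No detection calls were used here. The median gene level over all genes, 4.15, serves only as a rough mark for dim and bright probe sets, and a gene on either side of it may differ through its probes alone. In bulk RNA, fewer cells that express a gene and less RNA per cell cannot be told apart.

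PTPRM RNA was lower in the clones labelled MondoA shRNA by 2.52 log2 units, a 5.72-fold lower value. The probe set (8019988, gene on chromosome 18) read 2.48, 2.65 and 2.67 in MondoA shRNA clones 1, 2 and 3, against 5.13 and 5.11 in control clones 1 and 2. The groups lay far apart, with 2.44 log2 units between the highest MondoA shRNA clone and the lowest control clone, and within each group the clones were close together. The means were 2.60 ± 0.11 in MondoA shRNA and 5.12 ± 0.01 in control clones. The difference of -2.52 was the lowest of all 18417 genes, which is why PTPRM was chosen, and the next lowest was -1.80 for the metalloprotease gene ADAMTS9. Differences of -1 or lower were found for 0.13% of genes.

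The 3 low values of PTPRM lay in the dim range of the array. In MondoA shRNA clone 1 the value of 2.48 was exactly the value of 450 other probe sets on that array, whereas the other 4 PTPRM values were shared with 0 probe sets. Shared values were common among these data: 34.7% to 38.3% of the probe sets of an array had a value held by at least 1 other probe set. Whether the low PTPRM values are background was not assessed, so the difference in the RNA itself may be of another size. Without MondoA shRNA clone 1 the difference was -2.46.

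PTPRK, the closest of the measured relatives in direction, was also lower, by a smaller amount. Its probe set (8129418, chromosome 6) read 4.31, 4.45 and 4.45 in the MondoA shRNA clones, against 5.17 and 4.82 in the control clones. The groups did not overlap, and the control clones differed from each other more than the MondoA shRNA clones did. The means were 4.41 ± 0.08 and 5.00 ± 0.25 for MondoA shRNA and control, a difference of -0.59 or a 1.51-fold lower value. In the order of all genes from the lowest difference PTPRK stood at place 140. The difference depended on the control clone used, at -0.42 without control clone 1 and -0.77 without control clone 2.

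PTPRU, the third measured R2B gene, read 2.97, 2.86 and 2.86 in the MondoA shRNA clones and 2.86 in both control clones. Of the 5 values, 4 were the same number, which 170 to 222 other probe sets of those arrays also held. No difference between the groups can be read from such values. The R2B genes therefore showed a large difference in PTPRM, a small one in PTPRK and values in the dim range on every array for PTPRU.

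**Figure D1:**
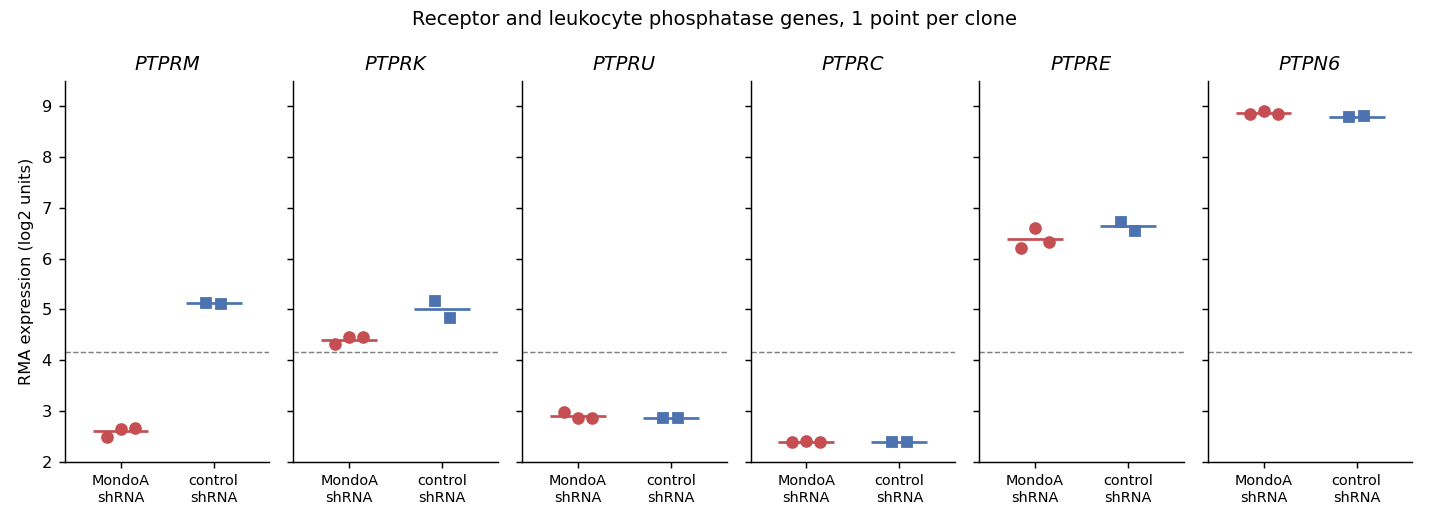
RMA expression (log2 units) of the 6 measured members, 1 point per clone, with MondoA shRNA clones as circles, control clones as squares, short lines at the group means and a dashed line at the median gene level of 4.15. PTPRM reads 2.48 to 2.67 in MondoA shRNA clones and 5.11 to 5.13 in control clones, and PTPN6 lies between 8.78 and 8.91 in all 5.

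Among the leukocyte phosphatases, PTPN6 was bright in every clone and nearly level. It read 8.85, 8.91 and 8.85 in the MondoA shRNA clones, against 8.78 and 8.81 in the control clones. The MondoA shRNA clones were all above the control clones, but the gap between the groups was 0.039 and the difference of means was 0.07 log2 units. PTPRE read 6.21, 6.61 and 6.33 in the MondoA shRNA clones, against 6.72 and 6.55 in the control clones. Its groups overlapped, since MondoA shRNA clone 2 read above control clone 2, and the difference of -0.25 compares with SDs of 0.21 and 0.12 in MondoA shRNA and control clones. It was -0.16 without MondoA shRNA clone 1 and -0.17 without control clone 1.

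PTPRC read 2.38, 2.41 and 2.38 in the MondoA shRNA clones and 2.38 in both control clones. The value 2.38 was the same number on 4 arrays and was shared there with 127 to 213 other probe sets. PTPRC thus lay in the dim range in all clones, and its difference of 0.01 carries no information on a change. The gene for the CD45-associated protein, PTPRCAP, read 7.86, 6.76 and 7.64 in the MondoA shRNA clones, against 7.36 and 7.42 in the control clones. MondoA shRNA clone 2 was the lowest and clone 1 the highest of the 5, so PTPRCAP varied within its group more than between groups (difference 0.03, adjusted p = 1.00 by limma).

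Over the 6 measured members, PTPRM and PTPRK were below the control range in every MondoA shRNA clone and PTPN6 was above it. Over all genes, 5.18% lay below without overlap and 4.85% above. As the list was built around this contrast, nothing is read from these counts.

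To place the members among their wider family, 30 further classical tyrosine phosphatase genes were listed, of which 27 were measured. Of the 27, 0 passed an adjusted p under 0.05 in limma (moderated linear models, Benjamini-Hochberg adjustment over all genes), and the same holds for 0% of all genes. At an unadjusted p under 0.05 stood 0 of the 27, against 3.73% of all genes. Their differences ran from -0.09 (PTPN4) to 0.17 (PTPRF), with 9 above 0, 12 below and 6 at exactly 0, and their median was 0, as was that of all genes. The 6 at exactly 0 (PTPRD, PTPRZ1, PTPN1, PTPN5, PTPN18 and PTPN23) each held 1 number on all 5 arrays. No difference can be read from such values, and the median of 0 falls among them. Over all genes 49.1% were above 0, 41.2% below and 9.7% at exactly 0. In 0 of the 27 did the groups lie apart. The differences of PTPRM, PTPRK and PTPRE were outside that range and those of PTPRU, PTPRC and PTPN6 inside it.

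Of the 11 measured receptor phosphatases outside the list of members, 10 had a mean below the median gene level. PTPRS, a receptor of heparan sulfate proteoglycans, was the exception and read 6.24 ± 0.07 in MondoA shRNA and 6.26 in both control clones. PTPRF, a receptor of the LAR family, read 4.01 ± 0.08 in MondoA shRNA and 3.84 ± 0.16 in control clones, and the clones overlapped. Its difference was 0.06 without control clone 1 and 0.28 without control clone 2. PTPRA, PTPRJ and PTPRQ were not analysed here.

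Of the 16 non-receptor phosphatases, 8 had a mean below the median gene level. PTPN11, known as SHP-2, which couples growth factor receptors to RAS, read 8.90, 8.94 and 8.94 in MondoA shRNA clones, against 8.96 and 8.78 in control clones. PTPN2, a phosphatase of JAK kinases that lies on chromosome 18 as PTPRM does, read 6.15, 7.03 and 6.61 in MondoA shRNA clones, against 6.68 and 6.61 in control clones. MondoA shRNA clones 1 and 2 were the lowest and the highest of the 5 for PTPN2, and the difference was -0.05. PTPN7, a leukocyte phosphatase that acts on MAP kinases, had the lowest p of this list at a difference of -0.03 (adjusted p = 0.833 by limma), which was -0.0079 without control clone 1.

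**Figure D2:**
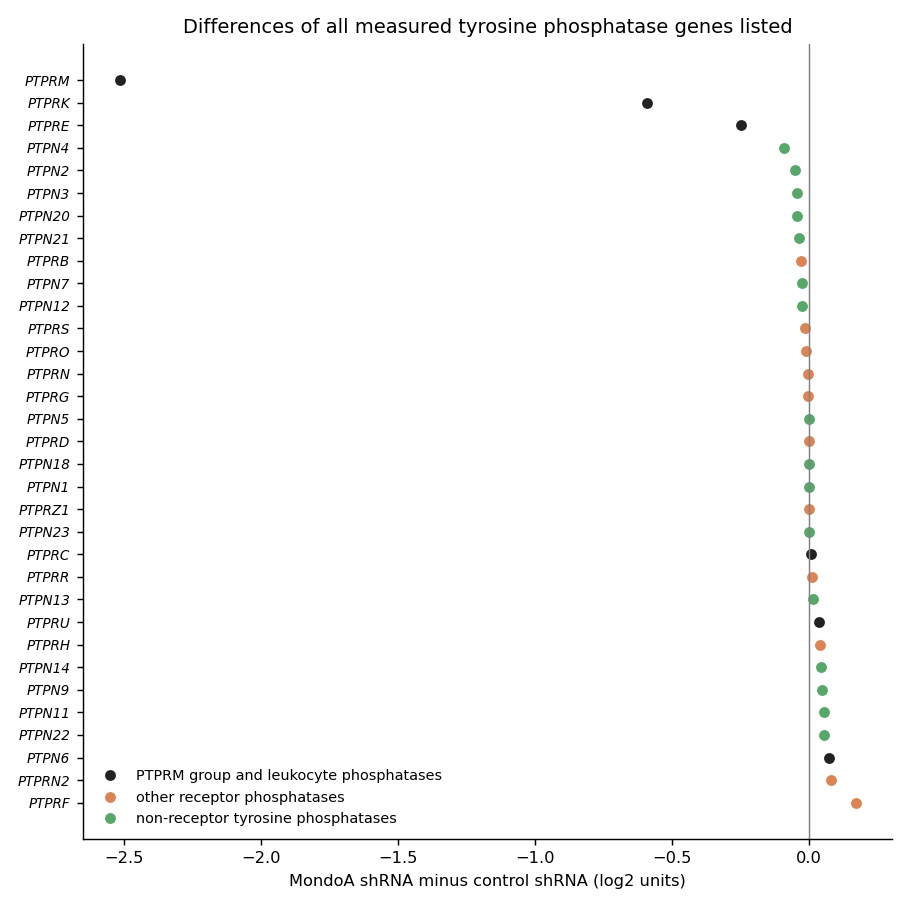
Difference in RMA expression, MondoA shRNA minus control shRNA (log2 units), for the 6 measured members (black), 11 other receptor phosphatases (orange) and 16 non-receptor phosphatases (green), ordered from the lowest at the top. PTPRM at -2.52 stands far to the left, followed by PTPRK at -0.59 and PTPRE at -0.25, and the 27 others lie between -0.09 and 0.17.

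PTPRM lies on chromosome 18, where many genes read lower in the clones labelled MondoA shRNA, so its neighbours were compared with it. By RefSeq gene order the 5 nearest measured genes on each side were taken. Of these 10 genes, 6 had a difference below 0, 1 above and 3 exactly 0, with a median of -0.13 and 0 past the adjusted threshold. Over all genes 41.2% were below 0, 49.1% above and 9.7% exactly 0. On the side of LAMA1, 4 of the 5 genes (EPB41L3, L3MBTL4, ARHGAP28 and LAMA1) read below 3 in every clone and their differences were between 0 and 0.03. The 3 genes at exactly 0 (EPB41L3, L3MBTL4 and LAMA1) each held 1 number on all 5 arrays, from which no difference can be read. On the side of RAB12 all 5 differences were negative, from -0.06 for NDUFV2, a subunit of respiratory complex I, to -0.50 for TWSG1, a secreted regulator of BMP signalling, and NDUFV2 changed sign without MondoA shRNA clone 1.

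TWSG1 read 6.18, 6.56 and 6.43 in MondoA shRNA clones, against 6.97 and 6.80 in control clones. MTCL1, a microtubule crosslinking factor, read 4.12, 4.15 and 4.30 in MondoA shRNA clones, against 4.45 and 4.81 in control clones. In both, and in ANKRD12 (-0.23), the groups did not overlap, which makes 3 of the 10 neighbours, against 5.18% of all genes on the lower side. The adjusted p was 0.833 for each of TWSG1 and MTCL1 in limma. Of the direct neighbours, LAMA1, a laminin chain, held the same dim value of 2.79 on all 5 arrays, from which no difference can be read. RAB12, a small GTPase, differed by -0.22, which rested on control clone 1 at 4.82: the difference was -0.02 without that clone and -0.41 without control clone 2. MTCL1 was -0.26 without control clone 2 and ANKRD12 was -0.12 without MondoA shRNA clone 1.

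With a mean of 3.61 over the 5 arrays PTPRM is not among the 110 chromosome 18 genes with a mean above 5, of which all 110 were lower and the median difference was -0.42. A difference below 0 was found for 41.2% of all genes, at any mean level. Over all 264 measured genes of the chromosome the median was -0.08. PTPRM minus the median of the 110 was -2.10 log2 units. The second lowest gene of the chromosome was RAB31, a Rab GTPase of vesicle transport, at -1.41, followed by MIB1, a ubiquitin ligase of Notch ligands, at -1.18 and NPC1, the lysosomal cholesterol transporter, at -1.11. The part of a chromosome-wide shift in the PTPRM value was not tested.

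**Figure D3:**
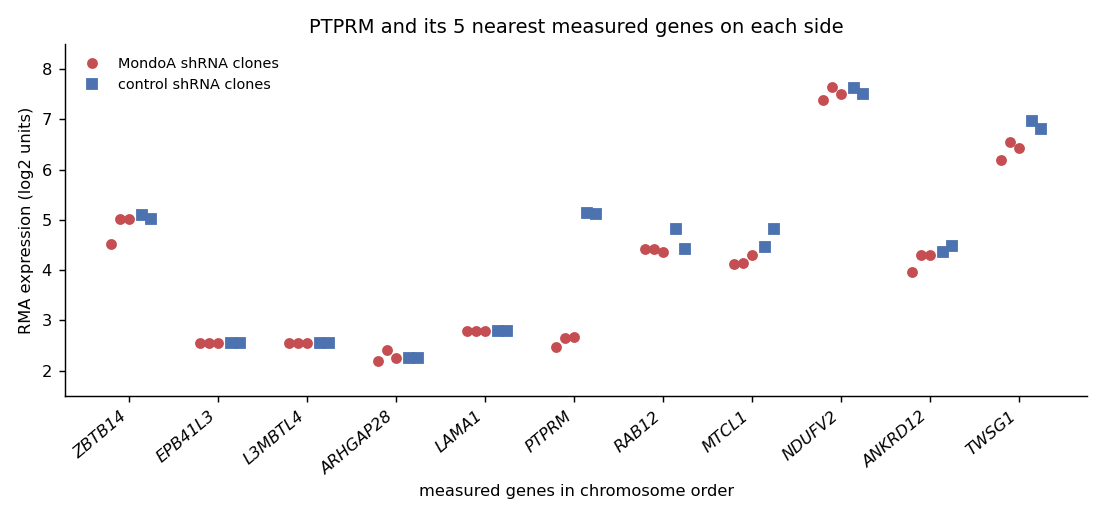
RMA expression (log2 units) of PTPRM and the 5 nearest measured genes on each side in chromosome order, with 1 point per clone (circles, MondoA shRNA; squares, control). PTPRM has the widest gap between the groups, and 4 of the genes on its left read below 3 in every clone.

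**Figure D4:**
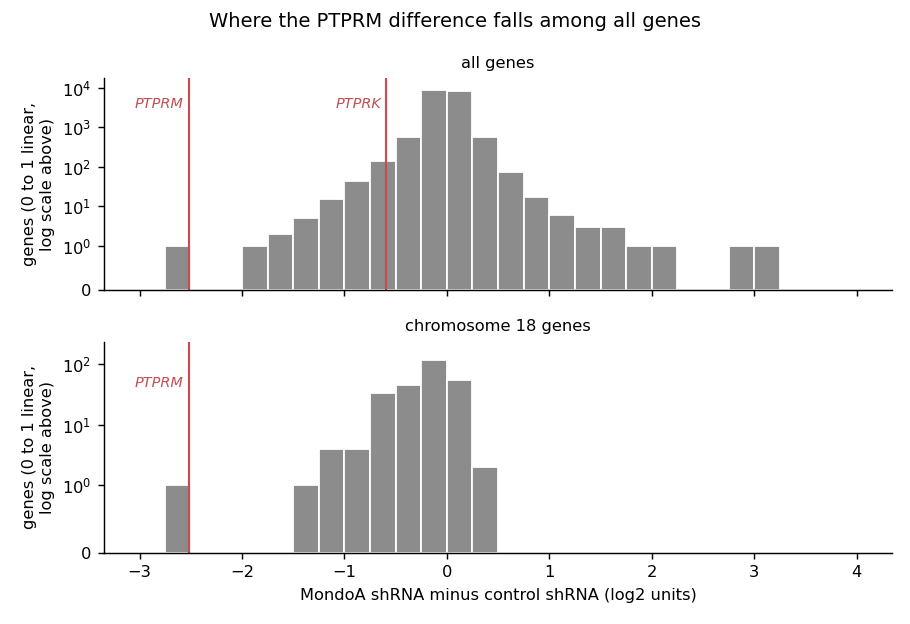
Number of genes by difference, MondoA shRNA minus control shRNA (log2 units, bins of 0.25), for all 18417 genes (above) and the 264 genes of chromosome 18 (below). The counts are on a log scale above 1, and the lines mark PTPRM at -2.52 and PTPRK at -0.59.

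The known partners of the R2B phosphatases at cell contacts had differences on both sides of 0. Of 15 listed genes 12 were measured, with 8 above 0 and 4 below, a median difference of 0.02 and 0 past the adjusted threshold. The cadherin genes CDH1, CDH2, CDH3 and CDH5 read below 3 in every clone, so the adhesion receptors with which PTPRM is best known to associate were in the dim range. Among the catenin genes CTNNA2 also read below 3 in every clone. CTNNB1, which encodes beta-catenin, read 8.80 in all 3 MondoA shRNA clones, against 8.84 and 8.74 in control clones, and JUP, which encodes plakoglobin, read 7.93 ± 0.15 in MondoA shRNA and 7.89 in both control clones. AFDN, which encodes afadin, a junction scaffold, read 4.44, 4.68 and 4.64 in MondoA shRNA clones, against 4.34 and 3.98 in control clones. It was the only gene of this list whose groups lay apart, against 4.85% of all genes on the higher side. The difference was 0.43 (adjusted p = 0.833 by limma) and 0.25 without control clone 2.

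The kinases on which PTPRC, PTPRE and PTPN6 act also had differences on both sides of 0. Of 13 listed Src-family kinases and regulators, 12 were measured, with 7 above 0, 3 below and 2 at exactly 0, a median difference of 0.04 and 0 past the adjusted threshold. With an unadjusted limma p under 0.05 there were 2 higher genes (LYN and CSK) and 1 lower gene (YES1), where over all genes 1.55% were higher and 2.18% lower at that level. LYN, the main Src-family kinase of B cells, read 8.02, 8.12 and 7.91 in MondoA shRNA clones, against 7.62 and 7.49 in control clones. CSK, which puts the inhibitory phosphate on Src-family kinases that CD45 removes, read 7.08, 6.87 and 7.24 in MondoA shRNA clones, against 6.51 and 6.61 in control clones.

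Of the 12 genes, 3 lay apart on the higher side (LYN, CSK and PAG1), against 4.85% of all genes. On the lower side 1 lay apart (YES1), against 5.18% of all genes. The differences of LYN and CSK were 0.46 and 0.50 log2 units (adjusted p = 0.833 for each in limma). PAG1, the membrane adaptor that recruits CSK, differed by 0.30, with 8.94 ± 0.13 in MondoA shRNA and 8.63 ± 0.15 in control clones. YES1, a Src-family kinase on chromosome 18, read 5.12, 5.20 and 5.20 in MondoA shRNA clones, against 5.58 and 5.37 in control clones, a difference of -0.29 (adjusted p = 0.833 by limma) that was -0.19 without control clone 1.

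The listed inhibitory receptors of the kind on which PTPN6 docks, a list that also holds the adaptor SIT1, were mostly dim. Of 18 measured genes 14 had a mean below the median gene level, 6 had a difference above 0, 5 below and 7 exactly 0, and 0 passed the adjusted threshold. With an unadjusted limma p under 0.05 there were 3 higher (CD22, LILRB2 and FCGR2B) and 1 lower (PILRA), against 1.55% and 2.18% of all genes. CD22, a sialic acid-binding co-receptor of B cells, read 7.14, 7.73 and 7.68 in MondoA shRNA clones, against 6.15 and 6.35 in control clones. Every MondoA shRNA clone was above both control clones, with a difference of 1.27 (adjusted p = 0.833 by limma). Of the 18 genes, 4 lay apart on the higher side (CD22, SIT1, LILRB2 and FCGR2B), against 4.85% of all genes. On the lower side 1 lay apart (PILRA), against 5.18% of all genes. FCGR2B read 2.77 ± 0.06 in MondoA shRNA and 2.59 ± 0.08 in control clones. PILRA read 3.27 ± 0.004 in MondoA shRNA and 3.40 ± 0.07 in control clones. Both genes were below the median gene level, so these counts rest partly on dim probe sets.

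SIT1, an adaptor that binds SHP phosphatases, read 5.75, 5.84 and 5.04 in MondoA shRNA clones, against 4.90 and 4.40 in control clones. CD72, another inhibitory co-receptor of B cells, read 8.29, 8.17 and 7.66 in MondoA shRNA clones, against 7.74 and 7.58 in control clones, so that clone 3 lay within the control range. LILRB2, an inhibitory receptor of myeloid cells, read 3.91 ± 0.10 in MondoA shRNA and 3.60 ± 0.06 in control clones, both below the median gene level. The phosphatase PTPN6 itself differed by 0.07, CD22 by 1.27 and the adaptor SIT1 by 0.89. The median difference of the 18 listed genes was 0.

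**Figure D5:**
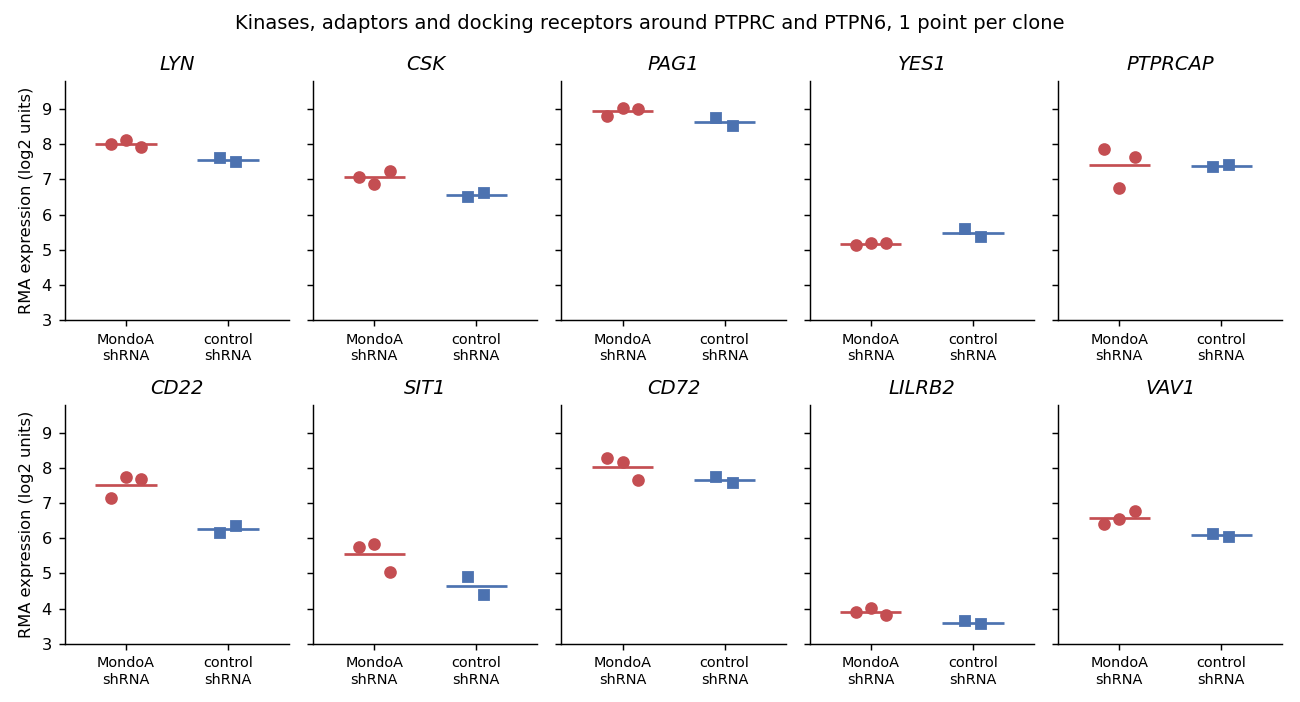
RMA expression (log2 units) of 10 genes around PTPRC and PTPN6, 1 point per clone, with circles for MondoA shRNA clones, squares for control clones and lines at the group means. LYN, CSK, PAG1, CD22, SIT1, LILRB2 and VAV1 are higher in every MondoA shRNA clone, as are 4.85% of all genes. YES1 is lower, as are 5.18% of all genes, and PTPRCAP spreads from 6.76 to 7.86 within the MondoA shRNA clones.

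Genes whose values over the 5 arrays were most like those of PTPRM were sought among the 328 genes that spanned at least 1 log2 unit. The 5 with the highest Pearson correlation were TSC22D3 (r = 0.995), which encodes a glucocorticoid-induced leucine zipper protein, XAF1 (0.995), a partner of the apoptosis inhibitor XIAP, SPINT2 (0.994), a protease inhibitor, TTN (0.992), which encodes titin, and AKAP9 (0.990), a scaffold of protein kinase A. Their differences ran from -1.18 to -0.92, all smaller in size than that of PTPRM, and 0 of them lie on chromosome 18. SPINT2, for example, read 3.98, 3.94 and 3.88 in MondoA shRNA clones, against 5.10 and 5.07 in control clones.

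The most opposite patterns were those of the Fc receptor-like gene FCRLA (r = -0.995), the calcium-binding protein gene S100A16 (-0.987), the adhesion gene ICAM3 (-0.987), the phosphohydrolase gene SAMHD1 (-0.987) and the exonuclease gene PLD4 (-0.982). FCRLA read 9.20, 8.89 and 8.93 in MondoA shRNA clones, against 7.58 and 7.60 in control clones. Each correlation rests on 5 arrays in 2 groups, so that any gene that separates the groups with little spread within them scores high, and it is a description only.

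Facts of the whole series bear on the labels. MLXIP, the targeted gene, read 6.42, 6.47 and 6.29 in MondoA shRNA clones and 6.42 in both control clones. The difference was -0.03 (adjusted p = 0.959 by limma). MondoA shRNA clone 1 and both control clones held exactly the same number, 6.420912, which limits what can be read on MLXIP RNA. The directions above therefore refer to the labels of the clones. Of 12 listed B-cell precursor markers 10 were measured, and all 10 were above the median gene level. Of the other lists, 1 of 9 T and natural killer markers (NKG7), 1 of 7 myeloid (ELANE), 1 of 6 erythroid and megakaryocyte (KLF1), 1 of 6 fibroblast (COL1A1), 2 of 5 epithelial (KRT8 and KRT18) and 1 of 6 endothelial markers (CLDN5) were above it. PTPRM and PTPRK are known from endothelial and epithelial cells. The mean of the endothelial list was 2.95 to 3.05 in MondoA shRNA and 3.02 to 3.04 in control clones. That of the epithelial list was 3.38 to 3.39 in MondoA shRNA and 3.40 to 3.77 in control clones. Control clone 2 read above control clone 1 in KRT18 (5.49 against 4.65) and EPCAM (3.18 against 2.26), and below it in KRT19 (2.94 against 3.06). The part of either list in the results was not tested.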

How the data were processed

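Biotin-labelled target from 200 ng of RNA was hybridised to Affymetrix whole-transcript arrays. The authors made log2 values with RMA in Affymetrix Expression Console 1.1, per the submitters' processing notes. RMA subtracts background, quantile normalises the arrays and combines probes by median polish. Which logarithm was used is not given in the sources used here, and base 2 was taken from the range of the deposited values (1.42 to 13.3). Filters and the build of the annotation are not given in the sources used here.

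Of 33297 probe sets, 19460 have exactly 1 gene symbol in the platform annotation, 1754 several and 12083 none, and only the first kind was used. Where a gene had several, the brightest was kept. A RefSeq table (GRCh38.p14), matched for 19429 probe sets by Entrez number, gave chromosomes and gene order. The number of arrays limits the precision. Nothing states that the clones came from separate transductions, so p-values measure the spread between these clones.

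Groups followed the titles. All genes were fitted in limma 3.58.1 (R 4.3.3), two-sided, at an adjusted p under 0.05. On simulated data with the spreads of these 18417 genes this step called 62.4% of changes of 1 log2 unit, 85.2% of 2, 95.5% of 3 and 0.0834% of unchanged genes. The changed genes were drawn at random and kept their own spread, also where tied values left little or none. Only 4301 genes had 5 different values, so these rates need not hold for the genes that differ here. In the data 0 genes passed, though 0.13% of genes had a difference of -1 or lower. The members and gene lists were chosen with earlier results of these data known. Named genes are the members, up to 3 genes of lowest p per list and those needed to describe it, the neighbours of PTPRM, the 5 most like and 5 most opposite patterns, and MLXIP. NPC1, MIB1, RAB31 and ADAMTS9 were named after their values were seen. Alternatives left out each array, blocked on the replicate number, normalised or centred again, averaged probe sets, used group medians, kept brighter genes, changed or dropped the moderation, weighted arrays or tested all probe sets. Sequences are from RefSeq.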

Additional observations from a re-analysis of the deposited data

How the results depend on the processing

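No alternative turned the sign of PTPRM, PTPRK or PTPRE. As the clones of PTPRM and PTPRK do not overlap, leaving out an array could not do so. PTPRM ran from -2.55 to -2.46 with 1 array left out and was -2.55 with a replicate block, which leaves MondoA shRNA clone 3 without a partner. The numbers are not stated to link clones, and the deviations of same-numbered clones correlated at -0.29 and -0.23 across genes, so no pairing was used. PTPRM was -2.47 by group medians. PTPRK ran from -0.77 to -0.42 and PTPRE from -0.36 to -0.16 with 1 array left out. The number of genes with an adjusted p under 0.05 was 0 (687 at an unadjusted p under 0.05 in limma) and became 2 with quantile normalisation again, 2 with centring, 3 without moderation, 0 with the replicate block and 0 to 752 with 1 array left out (752 without control clone 1 and 454 without control clone 2). Over the 4301 genes with 5 different values, an alternative chosen after seeing the data, it was 60. Of the 91 genes of the fixed lists, 0 to 5 passed with 1 array left out, the 5 without control clone 1. With 1 control clone left, its spread is taken from the MondoA shRNA clones. PLCG2 was 0.38 with its probe sets averaged, ARHGAP28 ran from -0.033 (without MondoA shRNA clone 2) to 0.081 and NDUFV2 from -0.13 to 0.0024 (without MondoA shRNA clone 1). For these sign changes, and for the changed counts, the cause was not tested. Background correction could not be varied with the values used here, and detection of the dim genes was not assessed.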

Other observations

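The kinases and adaptors that act next to PTPN6 and PTPRC in receptor signalling were above the median gene level in all cases but JAK2. Of 12 measured genes 3 had a difference above 0 and 9 below, with a median of -0.06 and 0 past the adjusted threshold in limma. At an unadjusted p under 0.05 stood 1, VAV1, against 3.73% of all genes. VAV1 read 6.41, 6.55 and 6.76 in MondoA shRNA clones, against 6.13 and 6.04 in control clones (adjusted p = 0.833 by limma). SYK, the kinase that starts B-cell receptor signalling, read 8.05 ± 0.13 in MondoA shRNA and 8.16 ± 0.13 in control clones, and BTK, a kinase downstream of it, 8.69 ± 0.29 in MondoA shRNA and 8.31 ± 0.20 in control clones (SD, n = 3 and n = 2).

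The probe sets of PLCG2, a phospholipase of B-cell receptor signalling, went in opposite directions. The brighter one (7997489) read 10.65, 10.49 and 10.47 in MondoA shRNA clones, against 10.68 and 10.89 in control clones, a difference of -0.25 that was -0.15 without control clone 2. The dimmer one (7997453) read 7.36, 7.88 and 7.58 in MondoA shRNA clones, against 6.74 and 6.45 in control clones, a difference of 1.01. The cause was not tested.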
